A study of Mus musculus with 124 samples.

Results

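The heat shock system was followed through 10 genes and 3 materials in a mouse study of human chorionic gonadotropin (hCG), which triggers ovulation. The genes, chosen by symbol with earlier results of these data known, were Hsf1, Hspa1a, Hspa1b, Hspa8, Hsph1, Dnajb1, Hspb8, Hsp90aa1, Hspd1 and Hspe1. All 10 symbols were present among the 27016 of the oocyte table, the 25239 of the blastocyst table and the 24409 of the dorsal dentate gyrus (dDG) table. The chaperones are mostly cytosolic, but Hspd1 and Hspe1 encode the chaperonin of the mitochondrial matrix.

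The females of the hCG group were in natural estrus and received 7.5 IU of hCG into the peritoneum, with no priming. Oocytes were taken 14 h later and freed of their cumulus. For oocytes, females of the Ctrl group were in estrus and housed with a sterile vasectomised male, and oocytes were taken in the morning from plugged animals. The oocyte groups thus also differed in mating and may have differed in the time from ovulation to collection. For blastocysts and dDG the 7.5 IU of hCG was given to the mother, and the matings behind these groups are not described here. Blastocysts were recovered by uterine flushing at embryonic day 3.5, and dDG, the upper part of a hippocampal region built mainly of granule neurons, was dissected from perfused offspring aged 8 weeks. Each group held 6 oocyte, 28 blastocyst and 6 dDG libraries. The labels name no strain and do not say that libraries of a group came from separate animals or litters, so a p-value here measures the spread between these samples, which may be technical.

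Heat shock factor 1, the product of Hsf1, is the main transcription factor of the heat shock response. In unstressed cells it is held inactive by chaperones, and when misfolded proteins engage these chaperones it forms trimers and binds heat shock elements, arrays of alternating GAA and TTC units set 2 bases apart. Its classical targets include the inducible Hsp70 genes Hspa1a and Hspa1b and the J-domain protein gene Dnajb1, while Hspa8 encodes the constitutive Hsp70 of the same cycle. In the brain, inducible Hsp70 and Dnajb1 are known to respond to temperature and stress.

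The promoter windows of the members that changed are shown because the heat shock element is the sequence through which Hsf1 acts. RefSeq windows on GRCm38.p6 from 250 bases before to 50 bases after a start were at hand for 7 of the 10 members. Hsf1, Hspa8 and Hsp90aa1 had none. The windows were searched on both strands for GAANNTTC, for TTCNNGAA and for 3 alternating units, which hold both shorter forms. Only exact GAA and TTC units were counted, so an element with an imperfect unit would be missed. Of 32851 mouse windows, 7.86% held GAANNTTC, 8.52% held TTCNNGAA and 0.603% held 3 alternating units. By gene, 2442, 2594 and 179 of 27025 genes had any window with these motifs, in the same order. Among the 7 members, 6 had a window with GAANNTTC, 3 one with TTCNNGAA and 3 one with 3 alternating units (Hsph1, Hspd1 and Hspe1). The Hspd1 and Hspe1 matches are the same bases read on opposite strands. Hspd1 held them only in the window of its second start, and the window of its first start held no motif. In the lines below capitals mark these motifs, each line runs 5′ to 3′ on the strand of the gene (the minus strand for Hspa1a, Hspa1b and Hspb8), and the last base lies next to the start of transcription.
Hspa1a, chr17:34972157-34972406: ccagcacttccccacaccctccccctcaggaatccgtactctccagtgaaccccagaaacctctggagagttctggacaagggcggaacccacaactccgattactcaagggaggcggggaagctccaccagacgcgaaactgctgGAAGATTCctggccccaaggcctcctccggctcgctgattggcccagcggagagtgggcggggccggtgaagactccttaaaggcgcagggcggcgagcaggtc
Hspa1b, chr17:34959239-34959488: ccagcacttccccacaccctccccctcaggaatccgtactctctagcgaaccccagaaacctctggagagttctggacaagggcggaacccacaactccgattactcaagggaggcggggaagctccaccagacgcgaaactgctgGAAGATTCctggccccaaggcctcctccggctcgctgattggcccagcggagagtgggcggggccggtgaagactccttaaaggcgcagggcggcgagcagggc
Dnajb1, chr8:83607925-83608174: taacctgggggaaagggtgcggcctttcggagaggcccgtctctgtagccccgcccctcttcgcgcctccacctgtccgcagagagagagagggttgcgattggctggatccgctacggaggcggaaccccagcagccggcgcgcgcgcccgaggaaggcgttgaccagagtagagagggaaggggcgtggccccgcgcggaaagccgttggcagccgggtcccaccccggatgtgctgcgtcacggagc
Hspb8, chr5:116422865-116423114: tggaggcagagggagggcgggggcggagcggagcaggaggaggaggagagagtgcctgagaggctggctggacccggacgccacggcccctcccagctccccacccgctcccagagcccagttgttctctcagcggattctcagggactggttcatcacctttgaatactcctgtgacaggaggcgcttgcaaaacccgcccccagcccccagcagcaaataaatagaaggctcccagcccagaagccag

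The Hspa1a and Hspa1b stretches differed at 3 of 250 positions, and both held GAAGATTC from 104 bases before the start. The Dnajb1 stretch and the Hspb8 stretch held no exact match to the motifs, and the single Hspb8 match lay from base 3 after the start. Hsph1 held TTCTCGAA from 33 bases before its start, in a stretch that is not printed. The longest run of units stood before the start of Hspe1 and inside the annotated span of the divergent gene Hspd1, and 30 bases around it are shown, with 30 bases that hold the 3 units of Hsph1, from base 37 after its start.
Hspe1, plus strand, chr1:55088051-55088080: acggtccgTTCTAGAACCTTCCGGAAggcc
Hsph1, minus strand, chr5:149636287-149636316: agtaaaatgctgcagaTTCTGGAAAGTTCt

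In oocytes none of the 7 members that could be tested changed, whereas 6 of 8 changed in blastocysts and 5 of 10 in dDG. Groups held 6 oocyte, 28 blastocyst and 6 dDG libraries, so these counts do not compare the size of effects between materials. A change here means an adjusted p under 0.05, by edgeR's quasi-likelihood test for oocytes and dDG and by limma for blastocysts, with Benjamini-Hochberg adjustment over all genes of a table. In blastocysts Hsf1, Dnajb1 and Hspb8 were higher in hCG libraries and Hsph1, Hsp90aa1 and Hspe1 were lower. In dDG Hsf1 and Hspb8 were higher and Hspa1a, Hspa1b and Dnajb1 were lower. At an unadjusted p under 0.05, 1 oocyte member (Hsph1) would have passed, and DESeq2 called 0. Levels are given as CPM, reads scaled to the library total, errors of means are SD, and errors of log2 fold changes (hCG against Ctrl) are standard errors.

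Over all genes tested, 1.33% were called higher in hCG oocytes and 2.67% lower. In blastocysts the shares were 8.93% higher and 7.19% lower, against 3 of 8 members in each direction. In dDG they were 4.67% higher and 3.19% lower, against 2 and 3 of 10 members. The members were chosen with earlier results of these data known, so these shares are a description and no test of the set. The members that could be tested passed a filter on low counts, and the 5 cases that did not (Hspa1a, Hspa1b and Hspb8 in oocytes, Hspa1a and Hspa1b in blastocysts) are described by their reads.

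**Figure D1:**
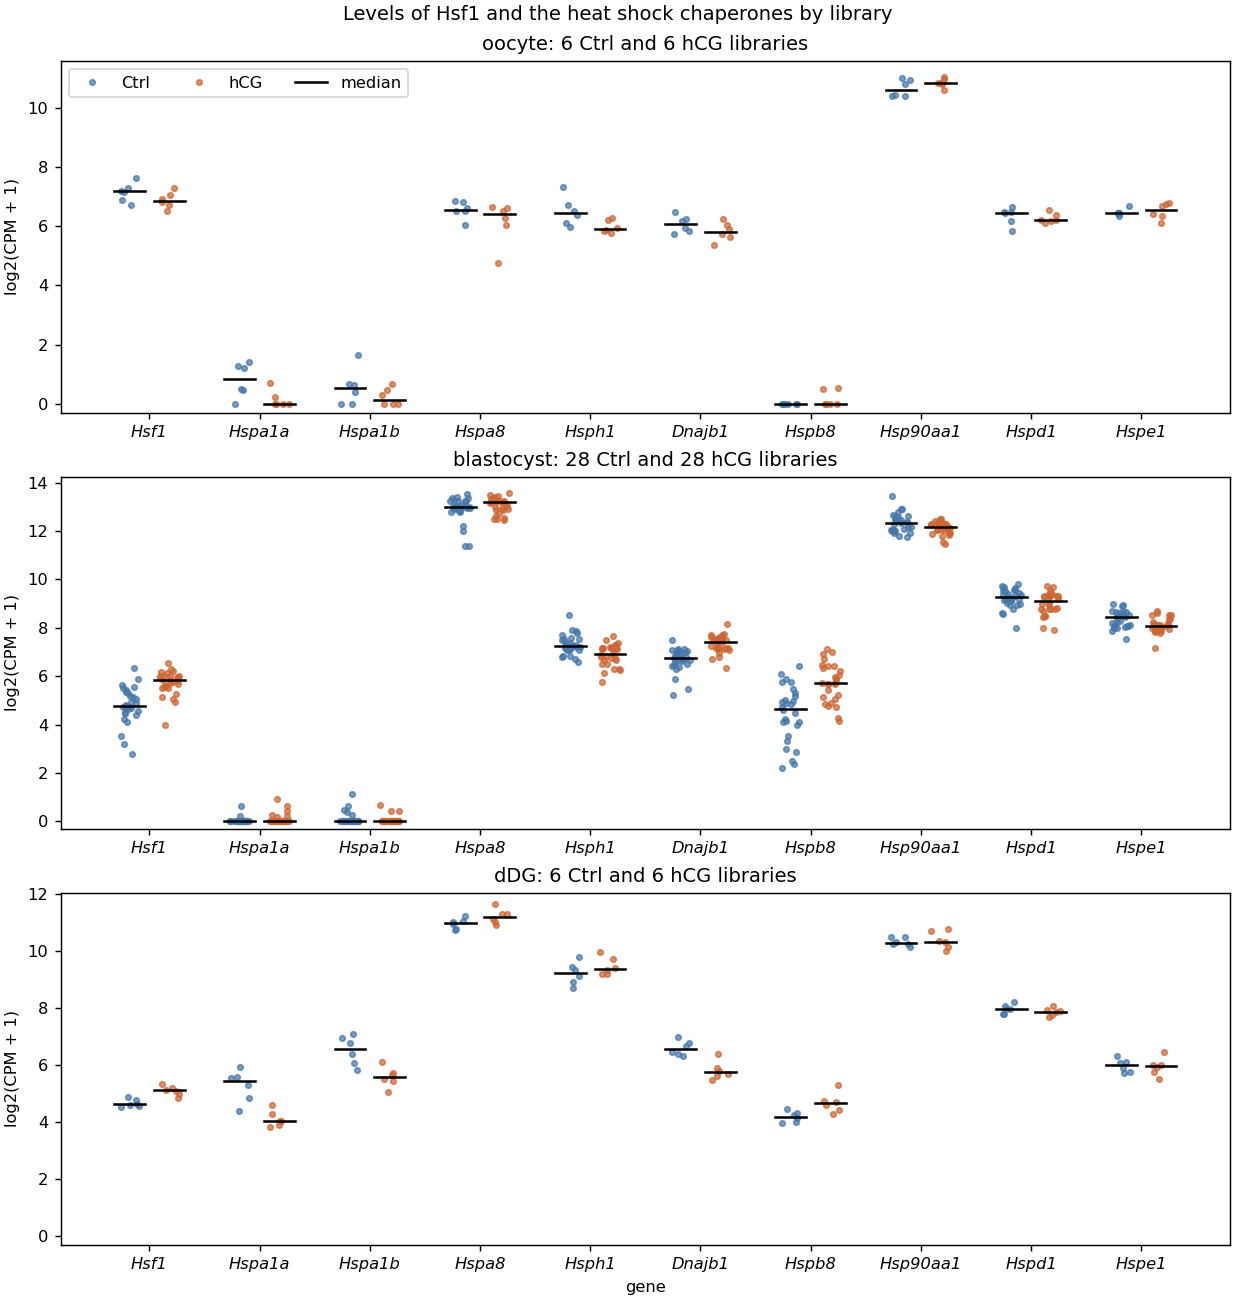
Levels of the 10 genes in every library, as log2(CPM + 1), with Ctrl in blue, hCG in orange and black bars at the medians (6 libraries per group in oocytes and dDG, 28 in blastocysts). Hspa1a and Hspa1b lie near 0 in oocytes and blastocysts and are expressed in dDG, where most hCG points lie under the Ctrl points.

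**Figure D2:**
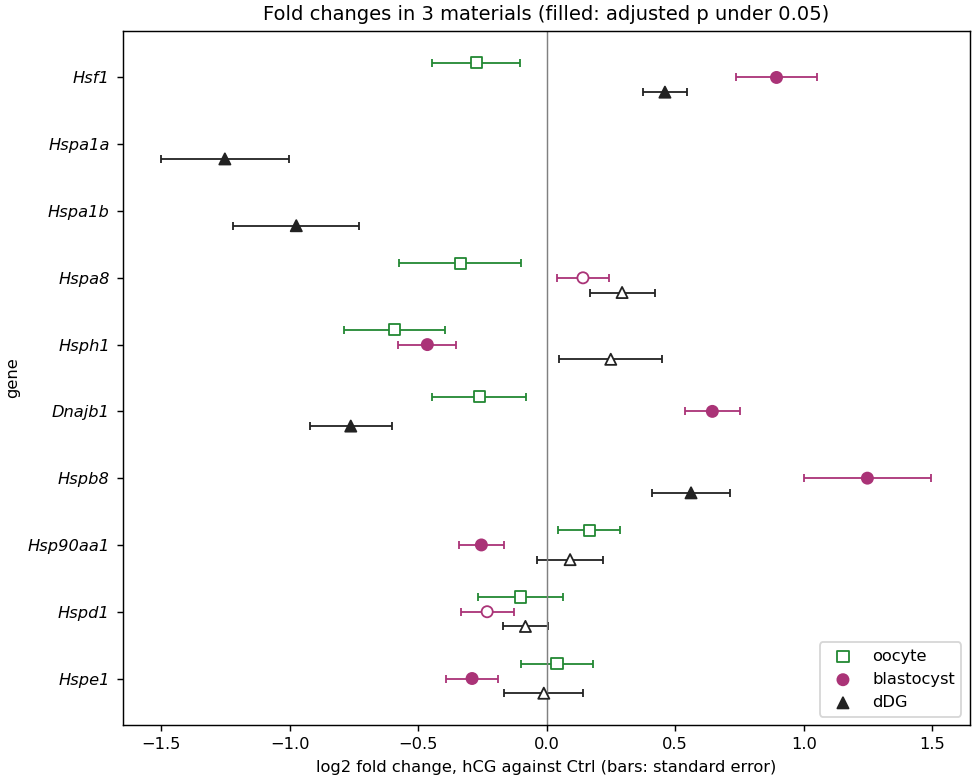
Log2 fold changes of hCG against Ctrl with standard errors for each member tested, with filled symbols where the adjusted p was under 0.05. Dnajb1 lies on opposite sides of 0 in blastocysts (0.64) and dDG (-0.76), while Hsf1 lies above 0 in both.

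Hsf1 (chr15:76477362-76501155, GRCm38.p6) was higher after hCG in blastocysts and in dDG of the offspring, and its oocyte values did not pass the test. In blastocysts Ctrl libraries ran from 5.91 over a median of 26.7 to 80.4 CPM, and hCG libraries from 14.9 over 56.03 to 92.3 CPM. The groups overlapped, but 27 of 28 hCG libraries lay above the Ctrl median. The log2 fold change on the log2(CPM + 1) scale was 0.89 ± 0.16 (limma, adjusted p = 0.000169, n = 28 per group).

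In dDG Hsf1 ran from 22.005 over a median of 23.9 to 28.9 CPM in Ctrl and from 27.8 over 34.0 to 39.3 CPM in hCG libraries. Only hCG library 5 fell within the Ctrl range, and the other 5 lay above every Ctrl library. The difference was 1.38-fold, a log2 fold change of 0.46 ± 0.09 (edgeR, adjusted p = 0.00590, n = 6 per group). In oocytes the Ctrl libraries held 144 ± 32.0 CPM and the hCG libraries 119 ± 23.3 CPM (SD, n = 6), and the log2 fold change of -0.28 ± 0.17 did not pass the test (edgeR, adjusted p = 0.415).

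Hspa1a and Hspa1b (chr17:34969359-34972156 and chr17:34956429-34959238) are neighbouring intronless genes that encode nearly the same stress-inducible Hsp70. Both were lower in dDG of hCG offspring, at 0.420 and 0.509 times the Ctrl level. Hspa1a ran from 20.1 over a median of 42.5 to 59.99 CPM in Ctrl and from 13.1 over 15.4 to 23.6 CPM in hCG libraries. All hCG values except that of library 1 lay under the lowest Ctrl value. This gave a log2 fold change of -1.25 ± 0.25 (edgeR, adjusted p = 0.0121, n = 6 per group).

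Hspa1b ran from 56.4 over a median of 95.5 to 138 CPM in Ctrl and from 32.6 over 47.0 to 67.6 CPM in hCG libraries. Again only hCG library 1 reached into the Ctrl range. Its log2 fold change was -0.98 ± 0.24 (edgeR, adjusted p = 0.0349, n = 6 per group), and this call was lost in 9 of the 12 fits that left out 1 library, all but those without Ctrl 1, Ctrl 2 or hCG 1 (adjusted p from 0.0198 to 0.0779). Reads from 2 near-identical genes may be split between them in the authors' counting, so the pair was also fitted as a single row, with a log2 fold change of -1.05 ± 0.24 (edgeR, adjusted p = 0.0224).

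In oocytes and blastocysts both genes had few reads. Over 6 oocyte libraries per group Hspa1a had 23 reads in Ctrl and 4 in hCG, and Hspa1b had 17 and 6. Over 28 blastocyst libraries per group Hspa1a had 4 estimated reads in Ctrl and 13.7 in hCG, and Hspa1b had 18 and 7.25. Two-sided tests of these CPM values gave unadjusted p = 0.0519 for Hspa1a and 0.327 for Hspa1b in oocytes (exact permutation test, n = 6 per group). In blastocysts they gave p = 0.211 and 0.437 (permutation test with 100000 resamples, n = 28 per group).

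Hspa8 (chr9:40801276-40805202), the constitutive Hsp70, did not pass the test in any material. In blastocysts it held 8012 ± 2245 CPM in Ctrl and 8738 ± 1821 CPM in hCG libraries, and its log2 fold change was 0.14 ± 0.10 (limma, adjusted p = 0.345, n = 28). In dDG it ran from 1702 over a median of 2042 to 2398 CPM in Ctrl and from 1927 over 2382 to 3227 CPM in hCG libraries. The groups overlapped, but 3 hCG libraries lay above every Ctrl library, the highest being library 1. The log2 fold change of 0.29 ± 0.13 had an unadjusted 95% interval from 0.01 to 0.57 and an adjusted p of 0.178 (edgeR).

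Ctrl oocytes held 94.8 ± 17.6 CPM of Hspa8 and hCG oocytes 76.0 ± 27.7 CPM, with a log2 fold change of -0.34 ± 0.24 (edgeR, adjusted p = 0.477, n = 6). The 3 tables were normalised separately and levels were not tested across them. The small nucleolar RNA genes Snord14c, Snord14d and Snord14e lie inside the Hspa8 gene.

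Hsph1 (chr5:149616843-149636498) encodes Hsp110, which releases nucleotide from Hsp70. It was lower in hCG blastocysts, where Ctrl libraries ran from 96.5 over a median of 151 to 365 CPM and hCG libraries from 53.1 over 120 to 202 CPM. The groups overlapped, and 23 of 28 hCG libraries lay under the Ctrl median. In log2 terms Hsph1 changed by -0.47 ± 0.11 (limma, adjusted p = 0.00388, n = 28 per group).

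In oocytes Hsph1 had the smallest p of the members. Ctrl oocytes ran from 61.5 over a median of 86.6 to 161 CPM and hCG oocytes from 53.6 over 59.3 to 76.3 CPM. All 6 hCG values lay under the Ctrl median, but the log2 fold change of -0.59 ± 0.20 did not pass (edgeR, unadjusted p = 0.00720, adjusted p = 0.103, n = 6). In dDG the values were 618 ± 168 CPM in Ctrl and 726 ± 167 CPM in hCG, with a log2 fold change of 0.25 ± 0.20 (edgeR, adjusted p = 0.486, n = 6). The hCG effect on Hsph1 was higher in dDG than in blastocysts by 0.73 ± 0.23 on the log2 scale (Wald test on limma fits, adjusted p = 0.0187). Between oocytes and blastocysts the effect on Hsph1 differed by 0.07 ± 0.22, which did not pass (same test, adjusted p = 0.890).

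Dnajb1 (chr8:83608175-83612653), the J-domain protein that delivers substrates to Hsp70, moved in opposite directions in embryo and offspring brain. In blastocysts Ctrl libraries ran from 36.1 over a median of 107 to 179 CPM and hCG libraries from 79.1 over 171 to 282 CPM. In all, 12 of 28 hCG libraries lay above every Ctrl library and 26 lay above the Ctrl median. Dnajb1 thus had a log2 fold change of 0.64 ± 0.11, or 1.56-fold (limma, adjusted p = 0.000117, n = 28 per group).

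In dDG Dnajb1 ran from 79.7 over a median of 94.2 to 126 CPM in Ctrl and from 44.2 over 53.1 to 83.1 CPM in hCG libraries. As for Hspa1a and Hspa1b, hCG library 1 alone lay within the Ctrl range. Here Dnajb1 had a log2 fold change of -0.76 ± 0.16, or 0.589 times the Ctrl level (edgeR, adjusted p = 0.0143, n = 6 per group). The difference between the dDG and the blastocyst effect was -1.41 ± 0.19 (Wald test on limma fits, adjusted p = 3.59e-10). Oocytes held 67.4 ± 13.3 CPM in Ctrl and 56.7 ± 12.2 CPM in hCG, a log2 fold change of -0.26 ± 0.18 (edgeR, adjusted p = 0.472, n = 6).

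**Figure D3:**
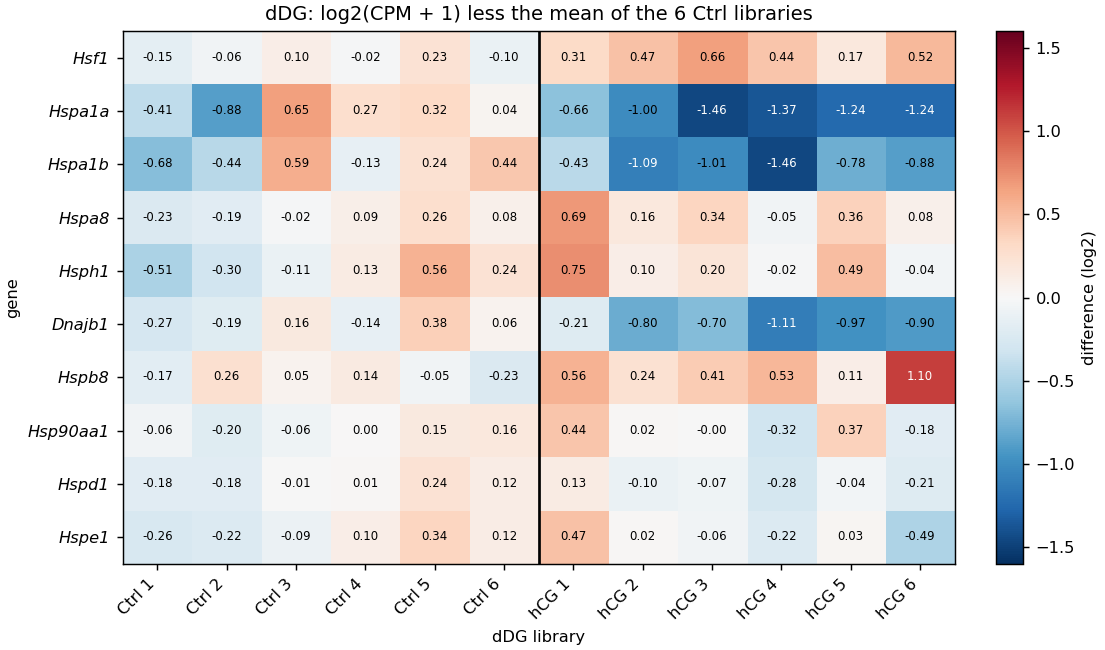
Each cell gives log2(CPM + 1) of a member in 1 dDG library less the mean of the 6 Ctrl libraries, with red above and blue below that mean. Hspa1a, Hspa1b and Dnajb1 are blue in all 6 hCG libraries, least so in hCG library 1, while Hsf1 and Hspb8 are red in all 6.

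Hspb8 (chr5:116408491-116422864) encodes a small heat shock protein that works with Bag3 and Hsp70 in the removal of misfolded proteins by autophagy. It had the largest rise of the members in blastocysts, from a range of 3.61 over a median of 24.2 to 84.5 CPM in Ctrl to a range of 16.98 over 52.1 to 137 CPM in hCG. The groups overlapped, and 26 of 28 hCG libraries lay above the Ctrl median. Hspb8 thus had a log2 fold change of 1.25 ± 0.25, or 2.37-fold (limma, adjusted p = 0.000804, n = 28 per group).

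In dDG Hspb8 ran from 14.6 over a median of 17.3 to 20.9 CPM in Ctrl and from 18.8 over 24.4 to 38.4 CPM in hCG libraries. In 4 hCG libraries it lay above all Ctrl libraries, and the highest value came from hCG library 6. The log2 fold change was 0.56 ± 0.15 (edgeR, adjusted p = 0.0364, n = 6 per group). This call was lost in 8 of the 12 fits that left out 1 library, all but those without Ctrl 2, hCG 2, hCG 5 or hCG 6, with adjusted p from 0.0234 to 0.0840, and without hCG library 6 the log2 fold change was 0.40 (adjusted p = 0.0414). In oocytes Hspb8 had no read in any Ctrl library and 4 reads in 2 hCG libraries. An unnamed gene model, Gm36841, overlaps 10271 bases of Hspb8.

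Hsp90aa1 (chr12:110691036-110696395) encodes the inducible cytosolic Hsp90. In blastocysts it ran from 3486 over a median of 5198 to 11023 CPM in Ctrl and from 2836 over 4607 to 5856 CPM in hCG libraries. The groups overlapped widely, though 24 of 28 hCG libraries lay under the Ctrl median. The log2 fold change of -0.25 ± 0.09 was close to the threshold (limma, adjusted p = 0.0400, n = 28 per group).

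The Hsp90aa1 call was lost in 13 of the 56 blastocyst fits that left out 1 library (Ctrl 6, 12, 13, 16, 24, 26 or 28, or hCG 3, 5, 7, 8, 11 or 20), with adjusted p from 0.0196 to 0.0693. Oocytes held 1648 ± 324 CPM in Ctrl and 1855 ± 179 CPM in hCG, with a log2 fold change of 0.17 ± 0.12 (edgeR, adjusted p = 0.499, n = 6). In dDG the values were 1294 ± 125 and 1362 ± 285 CPM, with a log2 fold change of 0.09 ± 0.13 (edgeR, adjusted p = 0.715, n = 6).

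Hspd1 and Hspe1 (chr1:55077833-55088243 and chr1:55088148-55091317) encode the chaperonin Hsp60 and its cochaperonin Hsp10, and their ends overlap by 96 bases. RefSeq names 5 pseudogenes of Hspd1 and 7 pseudogenes or related sequences of Hspe1, and whether reads were shared with these was not tested. In blastocysts Hspe1 ran from 187 over a median of 346 to 503 CPM in Ctrl and from 142 over 269 to 415 CPM in hCG libraries. The groups overlapped, and 23 of 28 hCG libraries lay under the Ctrl median. The log2 fold change was -0.29 ± 0.10 (limma, adjusted p = 0.0378, n = 28 per group), and the call was lost in 9 of the 56 fits that left out 1 library, those without Ctrl 9, 12, 15, 18 or 24 or hCG 9, 12, 13 or 23 (adjusted p from 0.0134 to 0.0600).

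Hspd1 held 616 ± 154 CPM in Ctrl and 542 ± 160 CPM in hCG blastocysts, with a log2 fold change of -0.23 ± 0.10 that did not pass (limma, adjusted p = 0.109, n = 28). Neither passed in dDG (edgeR, adjusted p = 0.593 and 0.974). Ctrl and hCG libraries held 251 ± 29.2 and 235 ± 23.5 CPM of Hspd1, and 63.5 ± 10.4 and 62.3 ± 14.4 CPM of Hspe1 (n = 6). Their unadjusted 95% intervals ran from -0.28 to 0.11 for Hspd1 and from -0.36 to 0.33 for Hspe1 on the log2 scale. In oocytes the log2 fold changes were -0.10 ± 0.17 for Hspd1 and 0.04 ± 0.14 for Hspe1 (edgeR, adjusted p = 0.793 and 0.916, n = 6).

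The hCG effect on some members differed between materials by a direct test. Between oocytes and blastocysts 15.1% of the genes tested in both differed, and of 7 members Hsf1 (by 1.16 ± 0.23, adjusted p = 4.92e-05), Dnajb1 (by 0.90 ± 0.21, adjusted p = 0.000636) and Hsp90aa1 (by -0.43 ± 0.15, adjusted p = 0.0285) did (Wald tests on limma fits). Between oocytes and dDG 9.23% of genes differed, and of 7 members Hsf1 (by 0.71 ± 0.19, adjusted p = 0.00566) and Hsph1 (by 0.79 ± 0.28, adjusted p = 0.0467) did. The Hsph1 value was close to the threshold, and these tests took p from the normal distribution whatever the number of libraries. Between blastocysts and dDG 13.3% of genes differed, and of 8 members Dnajb1 and Hsph1 did. The effects on Hsf1 in blastocysts and dDG differed by -0.45 ± 0.18, which did not pass (adjusted p = 0.0673). For Hspb8 that difference was -0.74 ± 0.28 (adjusted p = 0.0624).

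Other genes of the chaperone system were taken from lists. The 8 lists of 76 genes covered the other heat shock factors, Hsp70 and Hsp110 proteins, J-domain proteins, Hsp90 with its cochaperones, regulators of Hsp70, small heat shock proteins, mitochondrial chaperones and proteases, and the cytosolic chaperonin with prefoldin. In oocytes 59 were tested, and 1 was lower, the prefoldin subunit Pfdn2 (log2 fold change -0.48 ± 0.12, edgeR, adjusted p = 0.0331), where 2.67% of all genes were lower. The median log2 fold change of these 59 genes was -0.10, against 0.01 over all genes.

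In blastocysts 6 of 67 such genes passed the test, all of them higher, a share near the 8.93% of all genes called higher, with a median of 0.05 against 0.03 over all genes. They were Stip1, which links Hsp70 to Hsp90 (log2 fold change 0.56 ± 0.14), the J-domain gene Dnajb2 (0.66 ± 0.19), and Clpx (0.53 ± 0.11), Clpp (0.44 ± 0.10), Htra2 (0.40 ± 0.13) and Grpel2 (0.39 ± 0.10), which act in mitochondria (limma, adjusted p from 0.00118 to 0.0313). In dDG 1 of 70 passed the test, the J-domain gene Dnajb5, which was higher (0.41 ± 0.10, edgeR, adjusted p = 0.0217), where 4.67% of all genes were higher, with a median of 0.04 against 0.00 over all genes. The other heat shock factor tested in all materials, Hsf2, did not pass in oocytes (log2 fold change 0.31 ± 0.28, edgeR, adjusted p = 0.618), blastocysts (-0.05 ± 0.15, limma, adjusted p = 0.862) or dDG (-0.10 ± 0.10, edgeR, adjusted p = 0.576).

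Further lists are described for dDG, where 4.67% of all genes were higher and 3.19% lower. Of 16 circadian clock genes tested, 1 was higher and 2 were lower, with a median log2 fold change of -0.10. Of 11 glucocorticoid-induced genes 0 were called, with a median of -0.04. Rbm3 and Cirbp, RNA-binding genes known to be induced by mild cold, were lower in hCG libraries by log2 fold changes of -1.46 ± 0.11 and -1.15 ± 0.10 (edgeR, adjusted p = 5.70e-05 for both), with all 6 hCG values under all Ctrl values. In hCG blastocysts Rbm3 was lower (-0.50 ± 0.12, limma, adjusted p = 0.00281), whereas Cirbp did not pass (0.13 ± 0.20, adjusted p = 0.693). Of 19 immediate early genes, which respond to neuronal activity, 11 were lower and 1 was higher, with a median log2 fold change of -0.66, against 0.00 over all genes. Of 14 chaperones of the endoplasmic reticulum 3 passed the test, Hsp90b1 (0.72 ± 0.16), Calr (0.62 ± 0.14) and Canx (0.30 ± 0.07), all higher, and 3 others had a log2 fold change under 0. What these genes share with the fall of Hspa1a, Hspa1b and Dnajb1 was not tested. In bulk tissue fewer cells of a type and less RNA per cell cannot be told apart.

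Markers of other cell types of the tissue were read beside these genes. Of 9 endothelial and mural markers all 9 had a log2 fold change over 0 (median 0.48) and 1, Ly6c1, was called (0.84 ± 0.16, edgeR, adjusted p = 0.00864), with sums of 142 to 298 CPM in Ctrl and 152 to 478 CPM in hCG libraries. Of 9 microglia markers 8 were over 0 (median 0.19) and 3, Tmem119, C1qa and C1qb, were called higher, with sums of 345 to 435 CPM and 395 to 498 CPM. Of 9 oligodendrocyte markers 8 were under 0 (median -0.35) and 1, Olig1, was called higher (0.31 ± 0.09, edgeR, adjusted p = 0.0362), with sums of 1260 to 2984 CPM and 1201 to 2697 CPM. None of these sums passed a permutation test over library measures (exact, two-sided, adjusted p = 0.549, 0.380 and 0.549 over 17 measures, n = 6 per group), and their part in the heat shock results was not tested.

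Markers of the labelled material were present in all 3 tables, with summed levels of 12970 to 16907 CPM (oocyte list, oocyte libraries), 1164 to 9901 CPM (blastocyst list) and 8776 to 9813 CPM (granule neuron list, dDG). In hCG blastocysts more genes were detected (13549 ± 335 against 12968 ± 798, permutation test, n = 28 per group, adjusted p = 0.00136 over 17 library measures). With that number as a covariate the log2 fold changes were 0.60 for Hsf1, 0.49 for Dnajb1, 1.03 for Hspb8 and -0.45 for Hsph1, all still called (limma, adjusted p from 0.00431 to 0.0193), while Hsp90aa1 and Hspe1 were not (adjusted p = 0.265 and 0.423), and Hspd1 was called lower (-0.35, adjusted p = 0.0339). Among the hCG blastocyst libraries 5 (1, 3, 4, 22 and 23) reached a fixed CPM threshold for both Xist and the summed Y-linked transcripts, and 0 Ctrl libraries did. Levels under the threshold were not counted. Without them Hsf1 (0.91), Dnajb1 (0.62), Hspb8 (1.25) and Hsph1 (-0.46) stayed called, and Hsp90aa1 (-0.22, adjusted p = 0.110) and Hspe1 (-0.24, adjusted p = 0.111) did not.

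One dDG library, hCG 6, held 9779 CPM of choroid plexus transcripts, against 30.1 to 109 CPM in the Ctrl libraries. Without it Hsf1 (0.44), Hspa1a (-1.23) and Dnajb1 (-0.73) stayed called, and Hspa1b (-0.98, edgeR, adjusted p = 0.0677) did not. The part of these libraries in the results beyond these values was not tested.

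The members' values were also compared between libraries of 1 group. After each group's mean was removed, 23 of 45 pairs of members correlated over the 12 dDG libraries and 15 of 28 over the 56 blastocyst libraries at an adjusted p under 0.05 for Pearson's r (permutation within groups), and 19 and 7 did so for Spearman's rho. By r, 0 of the dDG pairs and 7 of the blastocyst pairs were negative. The share over other pairs of genes was not computed, so these counts do not set the members apart from other genes. In dDG the 5 genes Hspa8, Hsph1, Hsp90aa1, Hspd1 and Hspe1 formed a block with r from 0.83 to 0.96 in all 10 of their pairs. Hspa8 and Hspd1 had r = 0.96 and rho = 0.97 (permutation p = 0.0001 for both, the smallest these 10000 permutations can give, adjusted to 0.00112 and 0.00225 over 45 pairs), and r = 0.95 without the 2 libraries farthest from the median of Hspa8. Library 1 was the highest of the hCG group for all 5 of these genes and Ctrl library 5 the highest of the Ctrl group for 4.

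Dnajb1 correlated with Hspa1b in dDG (r = 0.77, permutation p = 0.0044, adjusted 0.0141, rho = 0.83, p = 0.0029, adjusted 0.0127, r = 0.78 without the 2 farthest libraries), in Ctrl (r = 0.80) and in hCG libraries (r = 0.81). This was not the highest r of Dnajb1, which had 0.87 with Hspa8 and with Hspd1 (0.70 for both without the 2 farthest libraries). Hsf1 did not pass with any other member in dDG, the largest r being 0.35 with Dnajb1 (permutation p = 0.289). Within groups that pair had r = 0.88 in the 6 Ctrl and -0.01 in the 6 hCG libraries, and Hsf1 with Hspa8 had 0.74 and -0.31, a difference that was not tested. In blastocysts Hsf1 correlated with Dnajb1 (r = 0.56, rho = 0.47, r = 0.45 without the 2 farthest, adjusted permutation p = 0.000933 for r and 0.0028 for rho) in both groups (r = 0.61 in Ctrl and 0.47 in hCG). Its correlation with Hsph1 there was negative (r = -0.43, rho = -0.45, r = -0.44 without the 2 farthest, adjusted permutation p = 0.0044 and 0.0077). Blastocyst Ctrl libraries 12 and 26 had the fewest genes detected (10382 and 10720) and the lowest Hsf1 and Dnajb1 values. The part of such library effects in these correlations was not tested. Hsf1 and Hsph1 also correlated negatively over the 12 oocyte libraries (r = -0.83, rho = -0.78, r = -0.85 without the 2 farthest, adjusted permutation p = 0.0063 for r and 0.0987 for rho over 21 pairs).

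**Figure D4:**
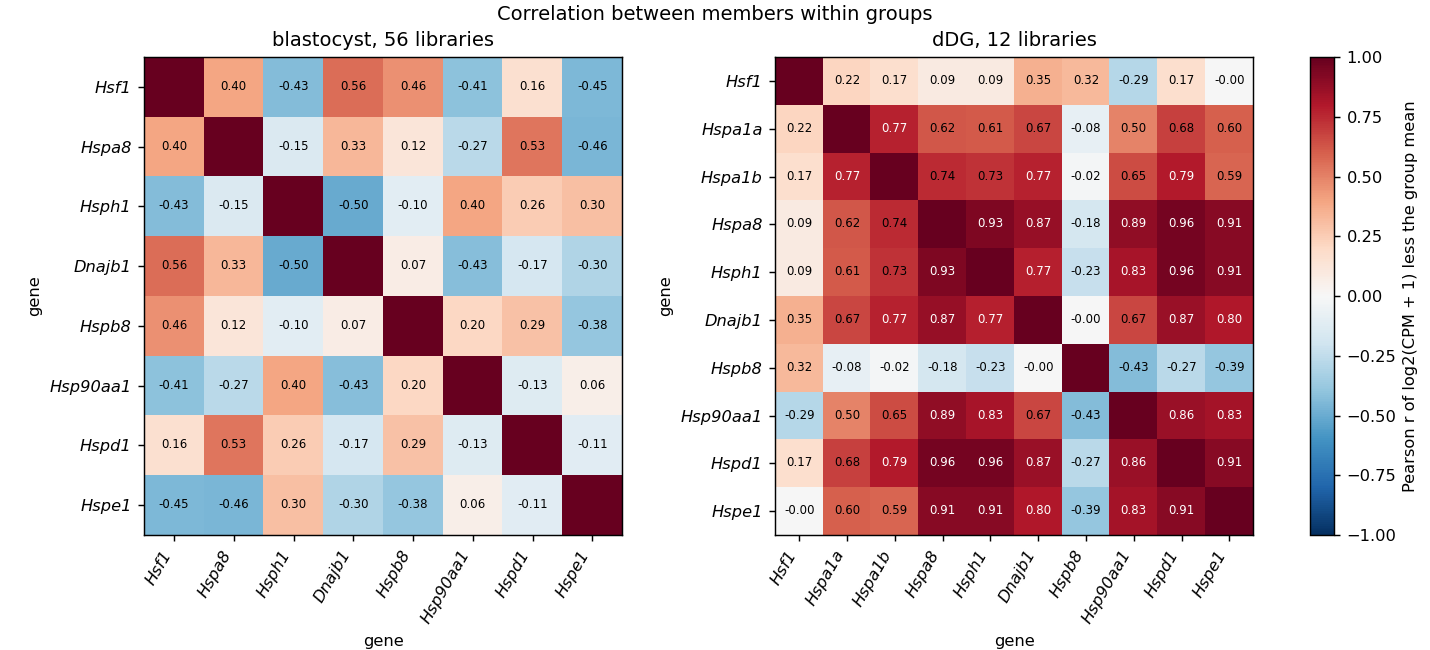
Pearson r between members over 56 blastocyst libraries (left) and 12 dDG libraries (right), computed on log2(CPM + 1) after removal of each group's mean. The dDG panel shows a block of high r among Hspa8, Hsph1, Hsp90aa1, Hspd1 and Hspe1, joined less tightly by Hspa1a and Hspa1b, with Hsf1 and Hspb8 outside it. The r of Dnajb1 with the genes of the block ran from 0.67 (Hsp90aa1) to 0.87 (Hspa8).

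The genes most like Hspa8 over the 12 dDG libraries were genes of chaperones and their cofactors. Of 13852 genes the 5 with the highest r were Stip1 (0.97), Ahsa1 (0.97), Cct7 (0.96), Hspd1 (0.96) and Hsp90ab1 (0.95), as a description without a test. The 12 points share effects of the library and its depth, whose part was not tested. The summed Hspa1a and Hspa1b lay closest to Dnajc13 (r = 0.92) and Las1l (0.88). For Hsf1 the closest genes were Ldb1 (0.92) and Acrbp (0.92), and for Hspb8 Pcca (0.92) and Fam131a (0.92). Without the 2 libraries farthest from the member's median, r was 0.94 for Ldb1, 0.82 for Acrbp, 0.77 for Pcca and 0.76 for Fam131a. For Dnajc13 and Las1l it was 0.88 and 0.83.

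Over the 56 blastocyst libraries the closest genes were others. Hspb8 lay closest to Sqstm1 (r = 0.71), the autophagy receptor, and to Tex19.1 (0.70). Hsf1 lay closest to Ube2v1 (0.81) and Rab7 (0.76), and Hspa8 to Fam114a2 (0.79) and Ndrg3 (0.75).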

How the data were processed

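RNA tables of 80 of the 124 samples were used, and the bisulfite libraries were not analysed here. The deposited oocyte table holds counts. The deposited dDG table holds expected counts per transcript, which were summed by gene and rounded. The deposited blastocyst table holds a signal, estimated counts times a factor per library whose basis is not given in the sources used here. In each library 87.8% to 93.4% of values equalled a whole multiple of 1 step (tolerance 0.005), and division by the step gave estimated reads. Per the submitters' processing notes STAR 2.7.6a, TopHat, HTSeq 0.12.4 and builds mm10 and GRCm38 were named, with no table assigned.

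Totals ran from 2379861 to 6924189 reads (oocytes), 3043231 to 10859370 (blastocysts, estimated) and 14991584 to 17859654 (dDG). Counts were tested with edgeR 4.0.16 (TMM, robust quasi-likelihood, filter of 10 counts and 15 in total), blastocysts with limma 3.58.1 on log2(TMM CPM + 1), both with Benjamini-Hochberg adjustment and a threshold of 0.05. DESeq2 1.42.0 was an alternative. Differences between materials were Wald tests on limma fits, with p from the normal distribution. The fits were tested on simulated data. Intervals of 95% used the standard error and the residual degrees of freedom. The members, the gene lists and the tests were chosen with earlier results of these data known. All 10 members were named. Of each list up to 4 called genes, or the 2 most abundant, could be named, and the 5 most correlated genes of Hsf1, Hspa8, Hspb8 and the summed Hsp70 pair. Some oocyte and dDG symbols (23 and 25) had been turned into dates and stayed unread.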

Additional observations from a re-analysis of the deposited data

Results flagged for a closer look

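Among 34 groups of 6 libraries of tested members (oocytes and dDG), 2 had a library far from the others, and chance flags about 1 in 20 groups. In hCG dDG the highest Hspb8 value was 38.4 CPM in library 6, against 25.99 CPM in the next. In Ctrl oocytes the highest Hspe1 value was 103 CPM in library 3, against 86.2 CPM in the next.

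The hCG effect differed between materials for 4 members by the Wald test on limma fits. From oocytes to blastocysts it differed by 0.90 for Dnajb1, 1.16 for Hsf1 and -0.43 for Hsp90aa1. From oocytes to dDG it differed by 0.71 for Hsf1 and 0.79 for Hsph1. From blastocysts to dDG it differed by -1.41 for Dnajb1 and 0.73 for Hsph1.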

How the results depend on the processing

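Of 858 refits of a member under another setting, 790 kept direction and side of the threshold, 2 gained the call and 14 changed direction. In all 54 lost the call, 2 of them among those that changed direction (Hsp90aa1 and Hspe1 on unscaled blastocyst values). Hsf1, Dnajb1 and Hspb8 in blastocysts and Hsf1 and Dnajb1 in dDG kept their call in all of theirs. The cause of the changes below was not tested.

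DESeq2 called 274 genes higher and 429 lower in oocytes and 715 lower in dDG. Without oocyte Ctrl libraries 2 and 4, 271 genes were higher (45.5% of the calls higher, against 33.2%) and Hspe1 was at -0.0115. Without the oocyte libraries named for smart_seq3, 72 were higher and Hspe1 was at -0.0108. In blastocysts edgeR on the estimated reads called 607 genes higher (39.2% of the calls, against 55.4%). The deposited blastocyst values unscaled shifted the median gene by 0.49 and gave 3655 genes higher, 15 lower and 0 members lower, with Hsp90aa1 at 0.175, Hspd1 at 0.197 and Hspe1 at 0.138. The covariate of detected genes left 363 genes higher and 397 lower, with Hspa8 at -0.0891. Without the 5 hCG blastocyst libraries with Xist and Y-linked transcripts 1 member and 480 genes were lower. With dDG transcripts tested singly 1 member was higher.

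Equal replicate numbers are not stated to pair samples. Same-numbered deviations correlated from -0.19 to 0.21 in oocytes, -0.21 to 0.17 in blastocysts and -0.16 to 0.14 in dDG. They correlated best with their own number for 2 of 6, 1 of 28 and 0 of 6. These correlations over all genes cannot decide whether same-numbered samples shared a litter, day or batch. With the replicate number as a block, dDG had 1 member higher (Hsf1) and 1 lower (Dnajb1), while Hspa1a (-1.20, edgeR, adjusted p = 0.0893), Hspa1b (-0.95, adjusted p = 0.0984) and Hspb8 (0.53, adjusted p = 0.109) were not called, and 388 genes higher and 195 lower.

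Leaving out 1 library gave 70 to 292 genes higher and 167 to 365 lower in oocytes, 790 to 1264 and 637 to 1017 with 1 to 3 members lower in blastocysts, and 395 to 683 and 254 to 547 with 1 to 2 members higher and 2 to 3 lower in dDG. Single values ran from -0.0107 to 0.103 for oocyte Hspe1, -0.148 to 0.0690 for dDG Hspe1 and -0.00726 to 0.163 for dDG Hsp90aa1. Of values never called, oocyte Hspa8 was -0.16 without hCG library 3, oocyte Hsph1 -0.39 without Ctrl 4 and dDG Hsph1 0.12 without hCG 1. Few reads limit the precision for Hspa1a, Hspa1b and Hspb8 in oocytes and for the Hsp70 pair in blastocysts, and none of these 5 cases passed when fitted without the filter on low counts (adjusted p from 0.268 to 0.658).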
